A study of Homo sapiens with 4 samples.

Results

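A2058 is an established human melanoma cell line, and its carmustine-selected derivative was set against the parental line with both cultures in hypoxia. The comparison was chosen by sample label and covers 1 array of stem-like cells in hypoxia and 1 array of parental cells in hypoxia, out of 4 arrays in the study. The remaining arrays hold the same cell states in normoxia and serve below only as a second reading of the cell-state difference. The stem-like cells had been derived from the parental line by 6 months of continuous selection in 100 uM carmustine, and the label "cancer stem-like" is the submitters' name for that derivative. Whether the derivative is a clone or a pool, the oxygen level, the length of hypoxia and whether carmustine was present at harvest are not stated in the labels. Of 20045 genes with a usable probe on the Illumina bead array, 11000 were detected on at least 1 of the 2 hypoxia arrays, and these are the genes described. With 1 array per group there is no replicate, so no test was made, no difference has a replicate error, and every value describes these cultures only.

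Melanoma cells can occupy different transcriptional states. In the pigmented, melanocyte-like state the transcription factor MITF, together with SOX10 and PAX3, maintains genes of melanin synthesis and of the melanosome, the organelle in which melanin is made. Loss of that programme is commonly accompanied by higher levels of AXL, SOX9, inflammatory cytokines and matrix genes, a state usually called dedifferentiated or mesenchymal-like. Carmustine is a chloroethylating agent that alkylates the O6 position of guanine and goes on to crosslink the DNA strands, and the repair protein MGMT removes the O6 adduct directly. In hypoxia, the stabilised subunits HIF1A and EPAS1 pair with ARNT and raise transcription of genes of glycolysis, angiogenesis and pH control.

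Levels below are normalized probe signals on a log2 scale, so that a difference of 1 is a 2-fold difference, and they are compared only between arrays for the same probe. A gene is called higher or lower in stem-like cells where its signal differed by at least 2-fold, a rule of size and not a test. For a gene detected on 1 array only, the fold is a lower bound, written as at least N-fold, against the lowest level detected on the other array. By this rule 792 of 11000 genes were higher (7.2%) and 656 were lower (5.96%) in stem-like cells than in parental cells. The counts of each gene list below are to be read against these shares over all genes. Of the higher genes 549 were measured on both arrays and 243 are bounds, and of the lower genes 501 were measured and 155 are bounds. At 8-fold or more, 90 genes were higher and 47 were lower. The median log2 fold over all genes was 0.00. Scaling the arrays by their medians instead of their quantiles moved that median to -0.11 and gave 661 genes higher and 821 lower, so the share of called genes that were higher was 54.7% here and 44.6% there. With median scaling 9 calls of the named genes come under 2-fold, those of ERCC1, TAP1, LEF1 and RPL13A among them. By the authors' own values 50 of the named calls come under 2-fold, among them ISG15, MERTK, ANKRD1, NOTCH3, JAG1, FOSL1, BCL2, MVD and SC5D.

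The 2 arrays were of similar quality, with 16945 probes detected in stem-like cells and 16689 in parental cells. Detected probes had a median raw signal of 266.5 in stem-like cells and 300.9 in parental cells. Technical error could be gauged only from probes of the same gene, whose log2 folds had an SD of 0.280 over 2268 genes, and this leaves out error between arrays and between cultures. Of 385 called genes with a further detected probe, 366 had every such probe on the same side of 0 and 194 had every such probe past 2-fold. In 2 called genes, ACTR3B and SLC25A24, a further probe was past 2-fold in the opposite direction; these were picked out after their values were seen.

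**Figure D1:**
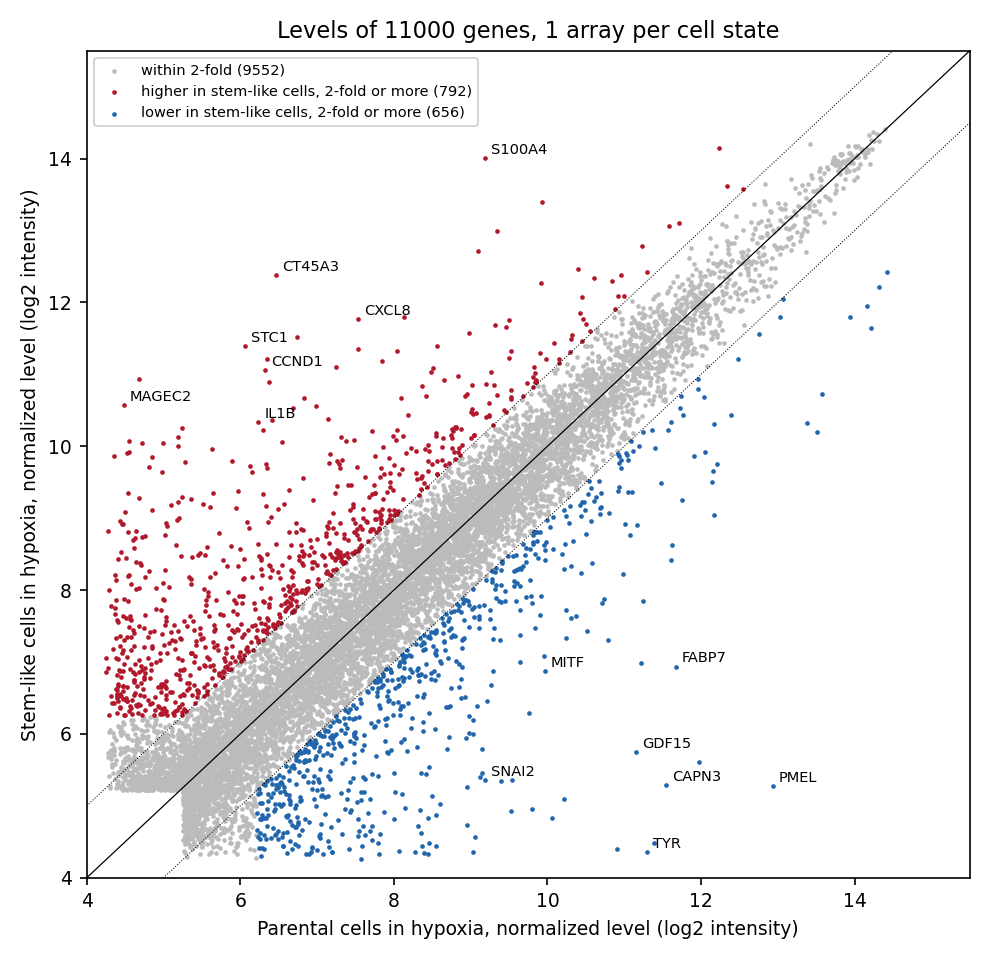
Normalized level of each of 11000 genes in stem-like cells in hypoxia (vertical axis, log2 intensity) against parental cells in hypoxia (horizontal axis, log2 intensity), 1 array each; the solid line marks equal levels and the dotted lines 2-fold. Red points are the 792 genes higher and blue points the 656 genes lower in stem-like cells; PMEL, CAPN3 and TYR lie among the farthest below the line and CT45A3 and MAGEC2 among the farthest above it. Some coloured and grey points at low level are bounds.

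The pigment programme had the lowest median of all the lists with at least 3 detected members. Of 30 detected members of the pigment list, 22 were lower, 1 was higher and 7 lay within 2-fold, with a median log2 fold of -1.36. PMEL, which encodes the fibril protein of the melanosome, stood at 5.28 in stem-like cells and 12.94 in parental cells, a 202-fold difference and the lowest fold measured on both arrays. TYR, the enzyme tyrosinase that starts melanin synthesis, stood at 4.36 in stem-like cells, where it was not detected, and at 11.30 in parental cells, at least 67.7-fold lower. PMEL was thus close to the detection limit in stem-like cells and TYR below it, while both were bright in parental cells. CAPN3, a calpain whose transcript is abundant in pigmented melanoma cells, was 76.8-fold lower, and its other probe gave -5.74 on the log2 scale. OCA2, a melanosomal membrane protein, was at least 9.72-fold lower, MLANA, a melanosomal antigen, at least 9.42-fold, and TYRP1, a tyrosinase-related enzyme, at least 5.99-fold. Within the synthesis and structure genes 8 of 9 detected members were lower. In RNA of a whole culture, fewer cells of a kind and less RNA per cell cannot be told apart.

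Among the transcription factors of the pigment list, 4 of 6 detected members were lower. MITF stood at 6.87 in stem-like cells and 9.96 in parental cells, 8.51-fold lower. IRF4, a factor that supports TYR transcription in melanocytes, was at least 7.63-fold lower. SOX10 stood at 9.93 in stem-like cells and 11.12 in parental cells, 2.28-fold lower, and so remained well above the detection limit. LEF1, a mediator of Wnt signalling, was the exception at 2.02-fold higher. PAX3 was not detected on either array. Among the genes that build and move melanosomes, 6 of 10 were lower; LYST stood at -1.73, the RAB38 GTPase at -1.54, RAB27A at -1.37 and its partner myosin MYO5A at -1.24. Of the receptor and survival genes, the endothelin receptor EDNRB was 3.12-fold lower and the melanocortin receptor MC1R 2.03-fold lower. The neuregulin receptor ERBB3 was at 10.39 in stem-like cells and 10.78 in parental cells, and its other 2 probes gave 0.42 and 0.19.

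**Figure D2:**
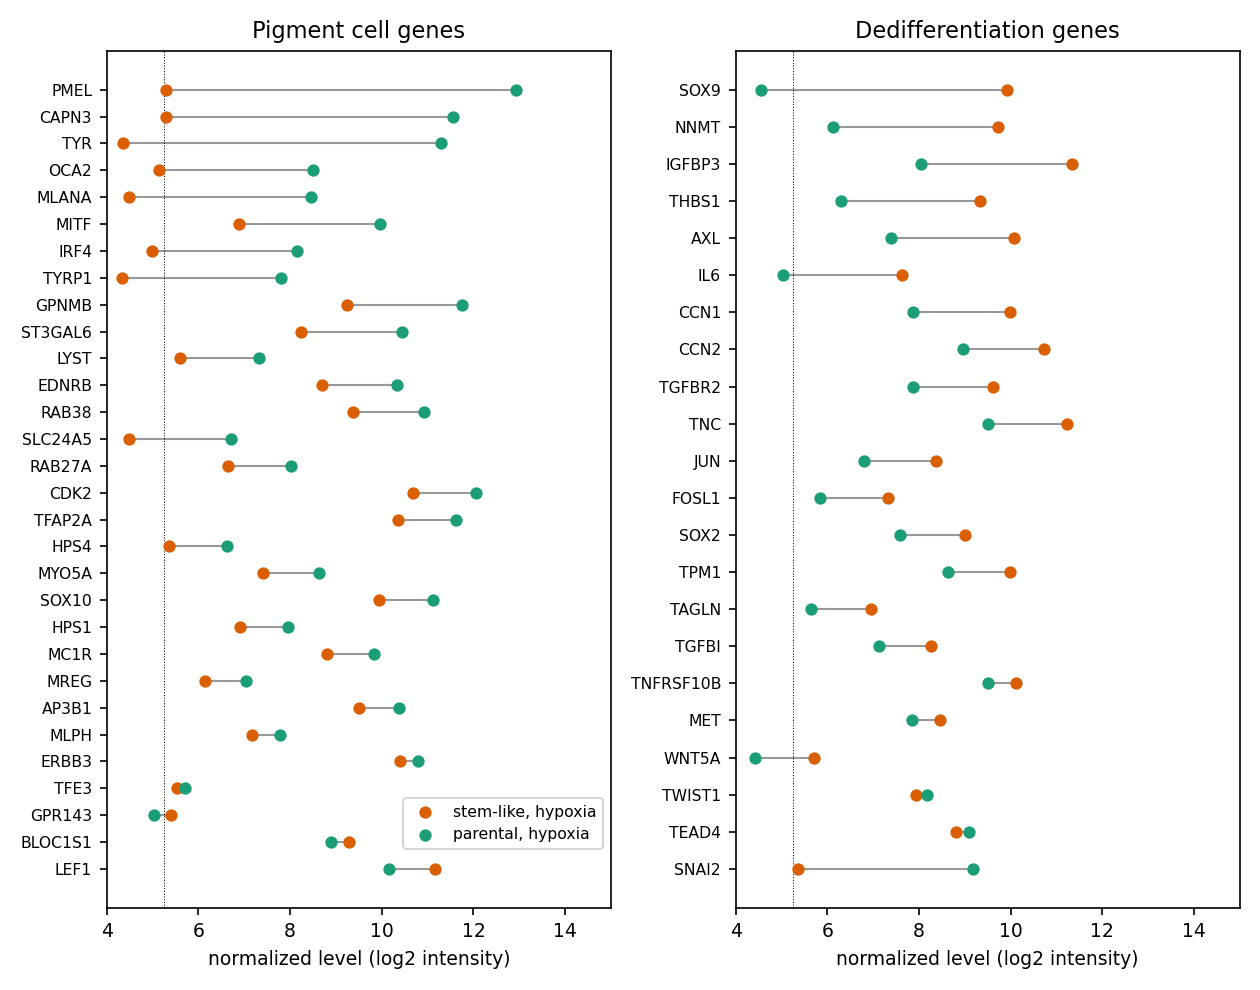
Normalized level (log2 intensity) of each detected member of the pigment list (left) and the dedifferentiation list (right) in stem-like cells in hypoxia (orange) and parental cells in hypoxia (green), 1 array each, with a line joining the arrays; the dotted line is the lowest detected level. PMEL, CAPN3 and TYR span the widest gaps on the left, and SOX9 on the right, where SNAI2 runs the other way.

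MITF binds the M-box, TCATGTG, in promoters of pigment genes. The motif was looked for on both strands of the RefSeq promoter windows (GRCh38.p14), which run 250 bases before to 50 bases after an annotated start. It was present in 2.92% of 35116 windows of all genes and in 1.91% of 12979 windows of the genes detected here. Counted by gene, 2.72% of the 8889 detected genes with a window held it. Of the 23 detected pigment genes that had a window, 5 held it, namely GPNMB, TYRP1, TYR, SLC24A5 and GPR143. GPNMB was 5.67-fold lower, SLC24A5, a melanosomal exchanger, at least 2.83-fold lower, and TYR and TYRP1 as given above; GPR143 was detected in stem-like cells alone and within 2-fold. These 4 windows are shown because their genes are lower members of the list that hold the motif; capitals mark the motif on either strand. The windows are TYR at chr11:89177625-89177924 (forward strand), TYRP1 at chr9:12693135-12693434 (forward strand), GPNMB at chr7:23246525-23246824 (forward strand) and SLC24A5 at chr15:48120740-48121039 (forward strand), and each is printed 5′ to 3′ along the gene's own strand.
TYR: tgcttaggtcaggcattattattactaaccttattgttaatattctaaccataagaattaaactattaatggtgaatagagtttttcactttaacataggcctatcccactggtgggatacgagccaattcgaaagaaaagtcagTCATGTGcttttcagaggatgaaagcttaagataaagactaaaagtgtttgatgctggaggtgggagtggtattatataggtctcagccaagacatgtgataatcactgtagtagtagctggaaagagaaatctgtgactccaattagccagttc
TYRP1: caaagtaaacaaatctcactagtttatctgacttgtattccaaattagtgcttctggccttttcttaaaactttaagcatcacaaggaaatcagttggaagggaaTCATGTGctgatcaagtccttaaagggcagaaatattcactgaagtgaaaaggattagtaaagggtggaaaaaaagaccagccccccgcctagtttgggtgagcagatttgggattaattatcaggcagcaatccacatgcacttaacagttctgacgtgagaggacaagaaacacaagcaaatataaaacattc
GPNMB: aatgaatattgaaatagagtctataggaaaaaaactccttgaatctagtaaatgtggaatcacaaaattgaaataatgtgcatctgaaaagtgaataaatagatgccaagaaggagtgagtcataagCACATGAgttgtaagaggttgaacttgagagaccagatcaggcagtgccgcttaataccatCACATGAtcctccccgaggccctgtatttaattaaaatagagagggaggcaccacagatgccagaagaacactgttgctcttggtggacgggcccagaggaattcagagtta
SLC24A5: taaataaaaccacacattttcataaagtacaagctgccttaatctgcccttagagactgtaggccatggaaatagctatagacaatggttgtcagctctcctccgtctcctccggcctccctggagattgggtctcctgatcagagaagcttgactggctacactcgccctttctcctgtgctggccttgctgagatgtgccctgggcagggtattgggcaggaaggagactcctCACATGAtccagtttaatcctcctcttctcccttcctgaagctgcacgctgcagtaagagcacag
A motif match describes the letters of a window and does not show binding. PMEL, MITF and MLANA are not among the genes with a match in these windows, which says nothing of sites elsewhere. Other motifs were counted too. Of the same 23 pigment genes, 4 held the AP-1 motif, TGANTCA, beside 7.06% of detected genes with a window. The interferon-stimulated response element core, defined below, was held by 3, beside 3.90%. AP-1 was held by 1 of 13 dedifferentiation genes. The antioxidant response element core, TGACNNNGC, was held by 8 of 24 glutathione and NRF2 genes, beside 19.7%.

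Genes of the dedifferentiated state were higher as a group. Of 22 detected members, 16 were higher, 1 was lower and 5 were within 2-fold, with a median log2 fold of 1.53. SOX9, a transcription factor whose level opposes that of SOX10 in melanoma states, stood at 9.92 in stem-like cells and 4.55 in parental cells, where it was not detected, at least 25.5-fold higher. AXL, a receptor tyrosine kinase of the TAM family, stood at 10.08 in stem-like cells and 7.38 in parental cells, 6.49-fold higher, and its other probe gave 2.55 on the log2 scale. NNMT, which methylates nicotinamide, was 12.2-fold higher, and the secreted proteins IGFBP3 and THBS1 were 9.82-fold and 8.2-fold higher. Of the 8 detected secreted members 7 were higher. SNAI2, an epithelial-mesenchymal factor that is also active in melanocytes, stood at 5.36 in stem-like cells and 9.19 in parental cells, 14.2-fold lower; its other probe gave -3.10. The receptors EGFR and NGFR, often raised in this state, were not detected on either array, and WNT5A was at least 1.38-fold higher, within the 2-fold limit.

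Stem cell associated genes did not move as a block. The 23 detected members comprised 10 higher and 5 lower genes, and the median log2 fold was 0.32. PROM1, which encodes the surface antigen CD133, stood at 4.84 in stem-like cells, where it was not detected, and at 10.07 in parental cells, at least 28.8-fold lower. CD44, another surface marker, stood at 11.54 in stem-like cells and 11.44 in parental cells. CD24 was 8.58-fold higher and the ectonucleotidase NT5E, or CD73, 6.64-fold higher. The surface markers commonly used to sort such cells thus differed in direction. The inhibitors of bHLH factors ID1 and ID3 were at least 27.8-fold and 14.9-fold higher, though a further ID1 probe gave only 1.28 on the log2 scale. SOX2 was 2.65-fold higher with a further probe at 0.77, and MYC was 2.19-fold lower. ALDH1A1, an aldehyde dehydrogenase, stood at 5.78 in stem-like cells and 7.96 in parental cells, 4.53-fold lower, while ALDH1A3 was 2.58-fold higher. KDM5B, the histone demethylase of slow-cycling melanoma cells, was 1.48-fold lower and so within the limit, and POU5F1, NANOG and LIN28A were not detected.

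MGMT, which repairs the lesion that carmustine makes, stood at 7.78 in stem-like cells and at 4.32 in parental cells, where its detection p-value was 0.949, at least 5.77-fold higher. It was the only member of 23 detected genes of direct reversal, base excision and mismatch repair past 2-fold, and the list median was 0.04. Of 34 detected genes of crosslink and double-strand break repair, XRCC3 was 3.14-fold higher and ERCC1, an endonuclease subunit, 2.18-fold higher, with 1 of its further probes at 0.15; none was lower, and 2 of 34 is no larger a share than over all genes. All 7 detected Fanconi anaemia genes lay between -0.37 and -0.04 on the log2 scale. Of 7 detected drug efflux transporters, ABCC3 was at least 5-fold higher and the cholesterol exporter ABCA1 at least 6.1-fold higher. ABCB1, ABCB5 and ABCG2, the efflux pumps most often linked to drug resistance, were not detected on either array.

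Most antioxidant genes were within 2-fold, as were most of all genes. Among 32 detected genes of glutathione metabolism and of the NRF2 response, the peroxiredoxin PRDX1 was 5.12-fold higher and the glutathione transferase GSTM2 4.19-fold lower, with a list median of -0.12. NFE2L2 itself, which encodes NRF2, stood at 9.54 in stem-like cells and 9.63 in parental cells. The aldo-keto reductases AKR1C2, AKR1C3 and AKR1C4 were detected in stem-like cells and not in parental cells, at least 2.25-fold, 8.71-fold and 3.05-fold higher. These genes are near-identical copies, so their probes may read each other's transcripts and the 3 values are not independent. Of the other family members with a probe, AKR1D1 stood at -0.14, and AKR1C1, AKR1B10, AKR1B15 and AKR1E2 were not detected on either array.

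Interferon-stimulated genes differed in a subset of antiviral effectors. The 36 detected members comprised 11 higher genes, 25 within 2-fold and 0 lower ones around a median of 0.51, and the 11 higher genes were all among the 28 antiviral effectors. BST2, or tetherin, which holds budding virions at the membrane, stood at 10.67 in stem-like cells and 6.83 in parental cells, 14.3-fold higher. IFITM1, a membrane protein that blocks viral entry, was at least 12.5-fold higher, MX1, a dynamin-like GTPase, 6.62-fold, and ISG15, a ubiquitin-like modifier, 2.7-fold. Of the 8 detected sensors and signalling genes none was called past 2-fold; IRF1 stood at 0.92 and JAK2 at -0.85 or below.

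The interferon-stimulated response element core, which reads GAAA, any 2 bases and GAAA again, was present in 3.57% of 35116 promoter windows, and in 2.87% of the windows of genes detected here. Counted by gene, 3.90% of the 8889 detected genes with a window held it. Of 30 detected interferon genes with a window 19 held it, and of the 10 higher ones with a window 9 did. Genes such as IFI6 and IFI44L, which hold it too, were within 2-fold. The windows of 3 of the higher genes are shown with the core in capitals on either strand, namely BST2 at chr19:17405581-17405880 (reverse strand), IFITM1 at chr11:313790-314089 (forward strand) and ISG15 at chr1:1013247-1013546 (forward strand).
BST2: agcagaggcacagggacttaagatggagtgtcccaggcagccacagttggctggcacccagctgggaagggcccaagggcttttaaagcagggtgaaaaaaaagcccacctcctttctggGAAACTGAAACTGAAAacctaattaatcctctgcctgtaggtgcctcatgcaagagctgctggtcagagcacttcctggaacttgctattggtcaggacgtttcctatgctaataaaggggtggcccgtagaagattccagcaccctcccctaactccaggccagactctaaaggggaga
IFITM1: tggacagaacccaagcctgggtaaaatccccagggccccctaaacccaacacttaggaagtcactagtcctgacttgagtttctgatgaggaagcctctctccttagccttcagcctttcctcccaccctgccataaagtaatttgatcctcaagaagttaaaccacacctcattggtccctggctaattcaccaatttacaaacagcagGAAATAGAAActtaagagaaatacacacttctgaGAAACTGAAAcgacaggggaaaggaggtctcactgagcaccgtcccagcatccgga
ISG15: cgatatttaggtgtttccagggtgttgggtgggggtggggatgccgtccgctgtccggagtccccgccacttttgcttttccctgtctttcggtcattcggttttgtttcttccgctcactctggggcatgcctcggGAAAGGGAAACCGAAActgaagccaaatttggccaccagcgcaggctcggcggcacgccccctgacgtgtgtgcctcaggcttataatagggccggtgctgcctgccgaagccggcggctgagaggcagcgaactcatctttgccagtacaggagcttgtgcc
Overlapping matches are joined in the capitals. Such cores are a known feature of interferon-induced promoters in general, whatever the level of the gene.

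Antigen presentation differed more for class II than for class I. Among 10 detected class II genes there were 7 higher and 0 lower, around a median of 1.59. HLA-DMA, which loads peptide onto class II molecules, stood at 9.65 in stem-like cells and 6.15 in parental cells, 11.3-fold higher. CD74, the invariant chain, and HLA-DPA1 were each at least 12.8-fold higher and below detection in parental cells. HLA-DRA was 3.1-fold higher, while its further probe gave 3.58 on the log2 scale. The HLA-DRB copies are too alike to be told apart by probe. CIITA, the class II transactivator, and the leukocyte antigen PTPRC were not detected on either array. Of 15 detected class I genes 3 were higher, namely the peptide transporter TAP1 at 2.05-fold, PSMB9 at least 2.32-fold and HLA-B at least 2.25-fold, with a median of 0.26.

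Inflammatory mediators formed a further higher group. Among 26 detected cytokines, chemokines, receptors and effectors, the list held 14 higher genes and 1 lower gene around a median of 1.21. CXCL8, or interleukin 8, stood at 11.77 in stem-like cells and 7.53 in parental cells, 18.9-fold higher, with a further probe at 3.69. IL1B stood at 10.34 in stem-like cells and 6.24 in parental cells, 17.2-fold higher. The neutrophil chemokine CXCL1 was 5.5-fold higher, IL6 at least 5.16-fold, IL1A at least 4.32-fold, and the decoy receptor IL13RA2 at least 7.12-fold. IL24, at least 2.52-fold lower, was the exception. The NF-kB subunits and feedback genes, which act upstream of many of these cytokines, differed less. Of 14 detected, 2 were higher and 1 lower, beside 7.2% and 5.96% over all genes. NFKB1 stood at 0.99, BCL3 at 1.64 and the feedback enzyme TNFAIP3 at -1.14 or below.

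**Figure D3:**
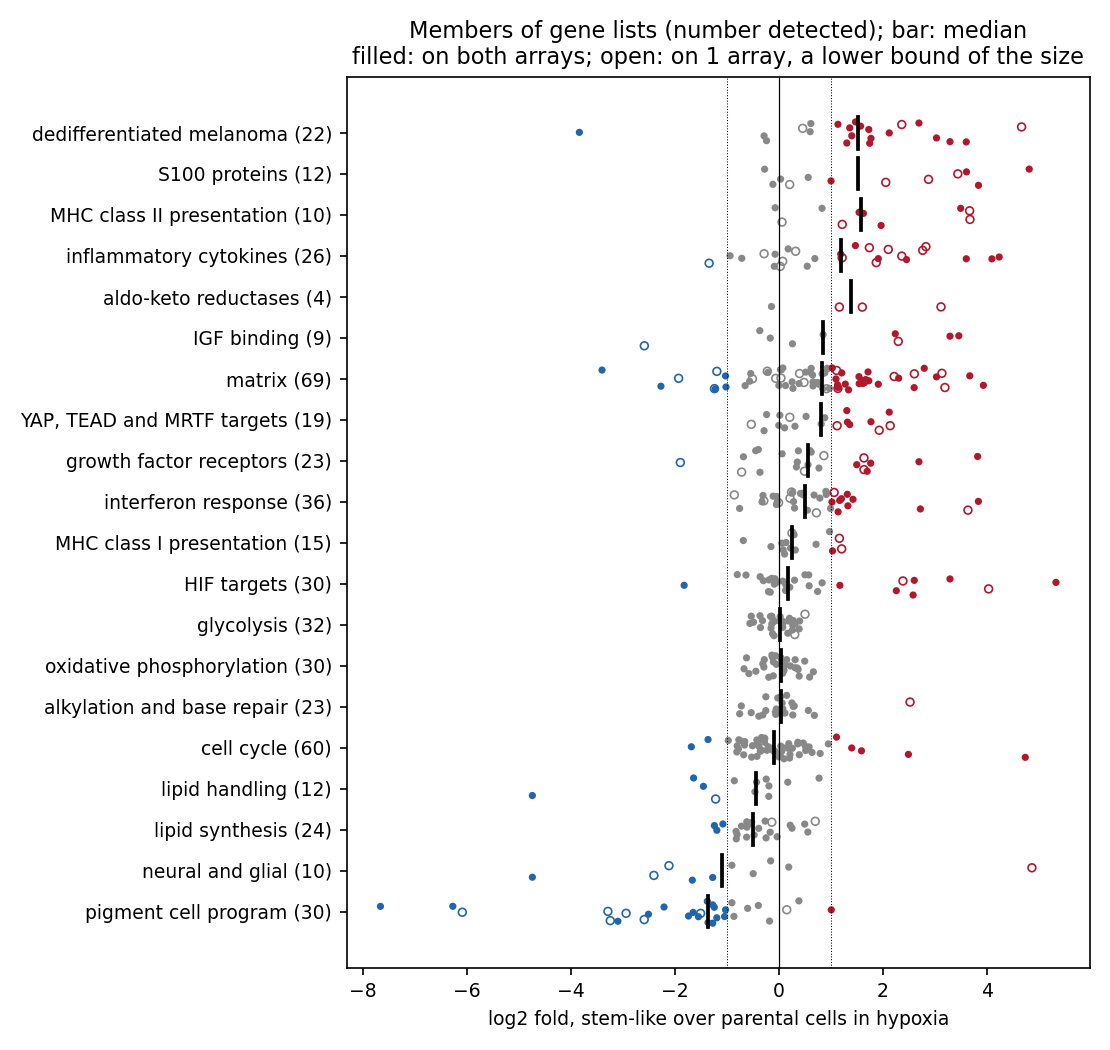
Log2 fold of stem-like over parental cells in hypoxia for the detected members of 20 gene lists, 1 point per gene; filled points were measured on both arrays, open points are bounds, red and blue mark 2-fold or more, and the black bar is the list median. The lists at the top, such as dedifferentiated melanoma with a median of 1.53, lie mostly right of 0, the pigment list at the bottom has a median of -1.36, and glycolysis and oxidative phosphorylation hold no gene past 2-fold.

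Growth factor receptors and ligands were higher more often than genes in general. Of 23 detected, 7 were higher and 1 lower, beside 7.2% and 5.96% over all genes. TGFA, a ligand of the EGF receptor, was 14.2-fold higher and the feedback inhibitor ERRFI1 3.41-fold higher. MERTK, a TAM receptor like AXL, was at least 3.7-fold lower, with a further probe at -0.86, so these related receptors differed in opposite directions. CCND1, the G1 cyclin D1 and a common output of MAPK signalling, stood at 11.06 in stem-like cells and 6.32 in parental cells, 26.8-fold higher. Of the 16 detected MAPK output genes it and SPRY4, FOSL1 and DUSP5 were higher, the last 3 by 2.88-fold, 2.79-fold and 2.2-fold. The YAP, TEAD and MRTF targets held 8 higher and 0 lower genes among 19 detected, around a median of 0.82. CCN1 and CCN2, secreted matricellular proteins, were 4.37-fold and 3.43-fold higher and ANKRD1 at least 4.43-fold.

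Developmental pathways showed single large differences. In the Wnt list 3 of 15 detected genes passed the limit upward and 1 downward, beside 7.2% and 5.96% over all genes. DKK1, a secreted Wnt antagonist, stood at 10.36 in stem-like cells and 6.41 in parental cells, 15.4-fold higher, and SFRP1, another, was 5.86-fold higher. CTNNB1, which encodes beta-catenin, was 2.99-fold lower, with further probes at -1.37 and -0.29, which disagree. In the Notch list 5 of 14 detected genes were higher and 1 lower; NOTCH3 was at least 4.18-fold higher, NOTCH1 2.87-fold and the ligand JAG1 2.91-fold, while the targets HEY2 and HES6 lay on opposite sides at 1.55 and -1.73. Of 15 detected TGF-beta genes 5 were higher, among them the receptor TGFBR2 at 3.37-fold, and GDF15, a distant family member induced by stress, was 42.4-fold lower at 5.75 in stem-like cells and 11.15 in parental cells. No detected Hedgehog gene was past 2-fold. In the epithelial-mesenchymal list 3 of 14 were higher and 3 lower; the factor PRRX1 was at least 11.3-fold higher and N-cadherin, CDH2, 2.34-fold higher, whereas SNAI2 was lower as given above and NCAM1 was at least 4.31-fold lower.

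Matrix genes were higher in large number. Among 69 detected members there were 28 higher and 8 lower genes around a median of 0.84. All 12 detected collagens lay above 0, 7 of them past 2-fold, but only 6 were detected on all 4 arrays. A collagen detected in stem-like cells alone could not fall below 0, so this count may be partly set by the detection rule. LAMA5, a laminin chain of basement membranes, stood at 11.80 in stem-like cells and 8.13 in parental cells, 12.8-fold higher. LOXL3, a lysyl oxidase that crosslinks collagen, was 15.3-fold higher, and the urokinase PLAU at least 8.82-fold. The integrin chains ITGA1 and ITGA3 were at least 6.11-fold and 6.09-fold higher. MGP, an inhibitor of calcification, was 10.5-fold lower, and LUM, the proteoglycan lumican, 4.8-fold lower. Of 9 detected IGF binding proteins and mRNA binders, 4 were higher, led by IGFBP5 at 11-fold, and IGFBP1 was at least 5.99-fold lower.

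S100 proteins, small calcium binders, gave 7 of 12 detected members higher and 0 lower. S100A4, associated with motility, stood at 14.01 in stem-like cells and 9.19 in parental cells, 28.2-fold higher, and its other probe gave 4.87. S100A16 was 14.4-fold higher, S100A6 12.2-fold and S100A3 at least 10.9-fold. S100A10, S100A11 and S100A1 stood at 0.04, -0.27 and -0.11. The family was thus divided between a strongly higher set and a level set.

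Most cell cycle genes were within 2-fold, as were most of all genes. Of 60 detected members 5 lay higher and 2 lower, beside 7.2% and 5.96% over all genes. None of 22 replication or 23 mitosis genes was lower by 2-fold. Mitosis genes had a median of -0.32 with 18 of 23 below 0, AURKB at -0.97 and CENPA at -0.80 among them. MKI67, the proliferation antigen, stood at 6.10 in stem-like cells and 6.04 in parental cells. Besides CCND1, the higher genes were mostly inhibitors of cyclin-dependent kinases, namely CDKN2B at 5.64-fold, CDKN1A at 2.65-fold and CDKN1C at 2.16-fold, with the helicase subunit MCM2 at 3.02-fold. CDK2 and CDKN2D were 2.56-fold and 3.2-fold lower, and CDK2 is itself regulated by MITF in melanocytes. Of 16 detected p53 targets CDKN1A was the 1 higher gene, and TP53INP1, at 5.17-fold lower, and GDF15 were the lower ones. Of 23 detected survival and death genes of the BCL2 family list, 3 were higher and 1 lower, around a median of 0.31. The survival protein MCL1 was 3.55-fold higher and BCL2 2.02-fold lower. The death genes PMAIP1 and TNFRSF10A were 2.08-fold and at least 2.01-fold higher, and a further PMAIP1 probe gave 0.64. With median scaling only 1 gene of this list was higher.

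Both cultures being in hypoxia, the oxygen machinery could be compared at the same nominal condition. HIF1A stood at 9.75 in stem-like cells and 8.91 in parental cells, 1.79-fold higher and within the limit, with further probes at 0.62 and 0.72. EPAS1, which encodes HIF-2 alpha, stood at 7.91 in stem-like cells and 5.99 in parental cells, 3.8-fold higher. None of the 7 detected oxygen sensors and regulators was past 2-fold, the lowest being the prolyl hydroxylase EGLN1 at -0.81. Of 30 detected HIF targets outside glycolysis, there were 8 higher genes and 1 lower gene around a median of 0.18. STC1, a secreted glycoprotein that acts on calcium and phosphate, stood at 11.39 in stem-like cells and 6.06 in parental cells, 40.3-fold higher, and STC2 was at least 16.4-fold higher. NDRG1 was 6.01-fold higher, AK4, a mitochondrial adenylate kinase, 4.8-fold, though 1 of its 4 further probes gave 0.03. MXI1, an antagonist of MYC, was 3.52-fold lower with a further probe at -0.38. Most targets did not differ in this way, and VEGFA stood at 7.05 in stem-like cells and 7.24 in parental cells. ANGPTL4 was within the limit at 0.58 in hypoxia and stood at -0.52 in normoxia, but its other probe gave 4.01 in hypoxia.

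Transcripts of glycolysis and oxidative phosphorylation were level by the 2-fold rule between the cell states in hypoxia. All 32 detected glycolysis genes lay within 2-fold with a median of 0.03, and all 30 detected genes of oxidative phosphorylation did so with a median of 0.05. Over all genes, 7.2% were higher and 5.96% lower. In normoxia 3 of the glycolysis genes were higher. Metabolism itself was not measured. ENO2, the neuronal enolase, stood at 9.33 in stem-like cells and 9.24 in parental cells, and SLC2A1, the glucose transporter GLUT1, at 11.26 in stem-like cells and 10.98 in parental cells. Cholesterol synthesis genes had all 12 detected members below 0 and a median of -0.59, but only MVD at -1.23 and SC5D at -1.19 were past the limit. FABP7, a brain-type fatty acid binding protein, stood at 6.94 in stem-like cells and 11.67 in parental cells, 26.6-fold lower, and APOE was 3.1-fold lower. Transferrin, TF, was 6.1-fold higher and the iron importer SLC11A2 3-fold lower. Of 17 detected amino acid transporters only SLC1A4 and SLC7A5 were past 2-fold, at 3.66-fold and 2.41-fold lower, and the list median was 0.04. Among 39 detected stress response genes 1 was higher and 4 were lower, around a median of -0.13. The chaperone HSPA5 was the higher one at 2.65-fold. The lower ones included the transcription factor ATF3, at least 2.61-fold lower, and PSAT1, of serine synthesis, 2.27-fold lower.

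Cancer-testis antigens, germline proteins that melanomas often express, split in both directions. The list had 4 higher and 4 lower genes among 23 detected, and its median was 0.06. MAGEC2 stood at 10.57 in stem-like cells and 4.48 in parental cells, at least 39.9-fold higher, with a further probe at 2.99, and MAGEA1 was at least 26.9-fold higher. CTAG2 stood at 4.56 in stem-like cells and 9.05 in parental cells, at least 14.3-fold lower, but its other probe gave -0.05. PAGE1 was 12.9-fold lower and PRAME stood at -0.17. CT45A3, outside that list, was the highest fold measured on both arrays at 60.5-fold, with 12.38 in stem-like cells and 6.46 in parental cells. The CT45A, SPANX, GAGE, TSPY and MAGEA families hold near-identical copies, so single members of each are uncertain; TSPY2 was 82.2-fold lower and TSPY8 and TSPY4 at least 71.8-fold and 32-fold lower.

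Further genes lay at the ends of the range. SERPINA5, a protease inhibitor, was 29.1-fold higher, SPRR2D, a cornified envelope protein, 27.4-fold, TESC, a calcium-binding regulator of proton exchange, 22.7-fold, and BASP1, a membrane-associated signalling protein, 20-fold. PODXL, a sialomucin, was 22.9-fold higher by one probe while the other gave 2.06 on the log2 scale. Detected in stem-like cells alone were RAC2, a GTPase mostly of blood cells, at least 31.9-fold higher, MSX1, a neural crest homeobox factor, at least 29.3-fold, and HS3ST3A1, a heparan sulfate sulfotransferase, at least 28.2-fold. On the lower side, PHACTR1, an actin and phosphatase regulator, was 18.8-fold lower, BCHE, butyrylcholinesterase, 18.1-fold, ARMCX2 16.6-fold, ADCY1, an adenylyl cyclase, 13.2-fold with a further probe at -1.52, and TM4SF18 12.9-fold. TMEM98 was at least 51.7-fold lower, with a further probe at -2.72, and LZTS1, a tumour suppressor, at least 24-fold. UTS2, urotensin 2, was at least 19.9-fold lower, with further probes at -3.88 and 0.08, which disagree.

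Markers of other cell types were mostly absent. Of 11 leukocyte markers with a probe 4 were detected, and PTPRC, CD3E, CD3D and CD79A were below detection on both arrays. SRGN stood at 11.10 in stem-like cells and 7.25 in parental cells, 14.4-fold higher, and CD14 was at least 7.23-fold higher; CD68 stood at 9.51 in stem-like cells and 9.45 in parental cells by one probe, while its other probe gave a log2 fold of 2.20, and LYZ was at least 1.79-fold higher. Of 9 fibroblast markers 3 were detected, with LUM lower, FAP at least 2.52-fold higher, and DCN at least 2.28-fold lower by one probe and at 0.08 by the other, while COL1A1, COL1A2 and COL3A1 were below detection. Keratinocyte and endothelial markers gave 1 of 6 and 2 of 8 detected, none past 2-fold. Of 13 detected housekeeping genes 12 were within 2-fold, with ACTB at 0.05 and GAPDH at -0.09, and RPL13A was 2.04-fold higher. Of 10 detected neural and glial genes 5 were lower and 1, MSX1, was higher.

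The same cell states in normoxia give a second reading, from arrays that the hypoxia comparison does not share. Over 9006 genes detected on all 4 arrays, the log2 folds in hypoxia and in normoxia correlated at r = 0.909 and Spearman rho = 0.841; this is a correlation across genes, which are not independent, and both folds set the same cell lines and the same probes side by side. Of the 792 higher genes 599 were also higher in normoxia, which is 75.6% of the hypoxia list and 83.7% of the normoxia list. Of the 656 lower genes 475 were also lower in normoxia, 72.4% of the hypoxia list and 75.5% of the normoxia list. No gene was called in opposite directions. PMEL stood at -7.66 in hypoxia and -7.02 in normoxia, and CCND1 at 4.74 in hypoxia and 4.20 in normoxia.

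Among genes detected on all 4 arrays, the difference between cell states itself differed by oxygen in a small set. The fold in hypoxia exceeded that in normoxia by at least 1 on the log2 scale in 29 of 9006 genes (0.322%) and fell short of it by at least 1 in 31 (0.344%). These counts were 2 and 4 without background correction, 3 and 5 in the authors' values and 46 and 19 with median scaling, so they rest on the processing. GDF15 stood at -5.41 in hypoxia and -3.65 in normoxia, a difference of -1.76; its level was 11.15 in parental cells in hypoxia and 10.32 in parental cells in normoxia. NDRG1, a hypoxia-induced gene, stood at 2.59 in hypoxia and 4.17 in normoxia, and ENO2 at 0.09 in hypoxia and 1.67 in normoxia. ENO2 was 9.33 in stem-like cells and 9.24 in parental cells in hypoxia, and 7.72 in stem-like cells and 6.05 in parental cells in normoxia. The cell states were thus close in ENO2 level in hypoxia and apart in normoxia. SERPINA3, an acute-phase protease inhibitor, and BEST1, a chloride channel, differed by -1.33 and -1.71. Over the 27 HIF targets detected on all 4 arrays the median difference was -0.30, and over 30 glycolysis genes -0.16. PLIN5, a lipid droplet protein, had the largest positive difference, 1.73, followed by UNC45A, a myosin chaperone, at 1.43. Genes not detected on all 4 arrays are left out of the counts. Among them STC2 stood at 4.04 or above in hypoxia and 2.15 or above in normoxia. AKR1C2 stood at 1.17 or above in hypoxia and 3.17 or above in normoxia, with stem-like levels of 6.42 in hypoxia and 8.43 in normoxia. These are bounds, so the sizes of their differences are not known. None of these differences was tested.

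**Figure D4:**
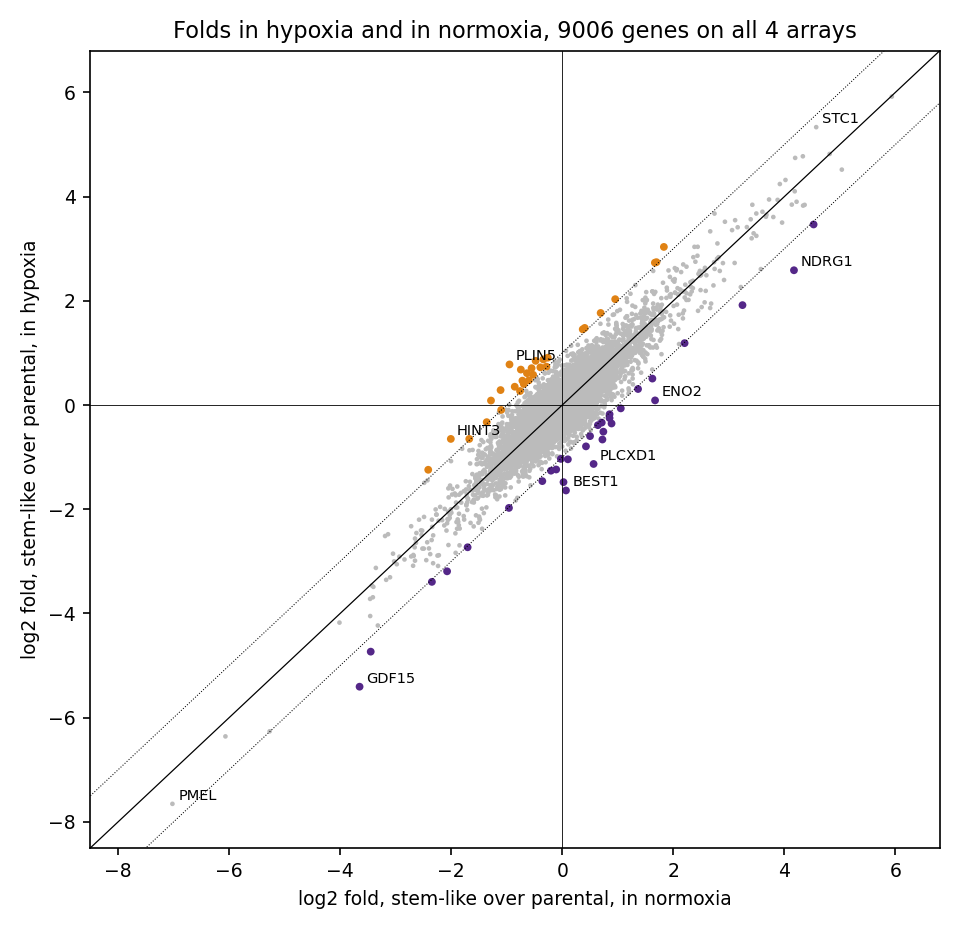
Log2 fold of stem-like over parental cells in hypoxia (vertical axis) against the same fold in normoxia (horizontal axis) for 9006 genes detected on all 4 arrays; the solid line marks equal folds and the dotted lines a difference of 1. Orange points are the 29 genes with a difference of at least 1 and purple points the 31 with a difference of at most -1, counts that other processing moved to between 2 and 46 and between 4 and 19; most of the other points lie along the line (r = 0.909 across genes).

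Genes were last placed in their order along the chromosomes of the RefSeq table (GRCh38.p14), and the median log2 fold was taken over runs of 15 neighbouring detected genes. Of 10654 overlapping runs, 200 had a median of at least 0.5 and 394 of at most -0.5. The highest run, from CT45A1 to SPANXD on chromosome X, had a median of 2.59 and is made mostly of the CT45A and SPANX copies, with ARHGEF6, a RAC and CDC42 exchange factor, at 2.18. The next, from S100A11 to S100A16 on chromosome 1, had a median of 2.06 and holds S100 and SPRR genes of the epidermal differentiation complex, with 8 of 15 genes higher. The rest of that run lay between -0.27 and 0.21, so its median was the value of the least raised of the higher genes, S100A2. SPRR2D, SPRR2E and SPRR2F are close copies, so their values may not be independent. The third, from CKB to ZBTB42 on chromosome 14, had a median of 1.35 with 11 of 15 higher, and unlike the first 2 it is made of genes of different families, among them creatine kinase CKB at 2.57, ADSS1 at 2.41 or above with a further probe at -0.18, KLC1 at 2.12 and XRCC3 at 1.65. XRCC3 is thus among neighbours that were higher together.

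The lowest run, from WDR45 to PAGE1 on chromosome X, had a median of -2.41 and holds 10 GAGE genes, whose near-identical probes are not independent. On chromosome 6 the run from NEDD9 to MYLIP had a median of -1.03, with all 15 genes below 0 and 9 of them past 2-fold; PHACTR1 stood at -4.23, TBC1D7 at -2.99 and TMEM170B at -1.77. On chromosome 1 the run from RNPC3 to WDR47 had a median of -0.98 with 14 of 15 below 0, among them the exchange factor VAV3 at -2.21 or below. That run includes the amylase copies AMY1A, AMY1B and AMY1C, whose near-identical probes are not independent. It also includes SLC25A24 at -1.14, whose further probe was past 2-fold in the opposite direction, as given above. In normoxia the medians of the chromosome 14, chromosome 6 and second chromosome 1 runs were 1.22, -0.99 and -0.83. DNA copy number was not measured, and its part in these runs was not tested.

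**Figure D5:**
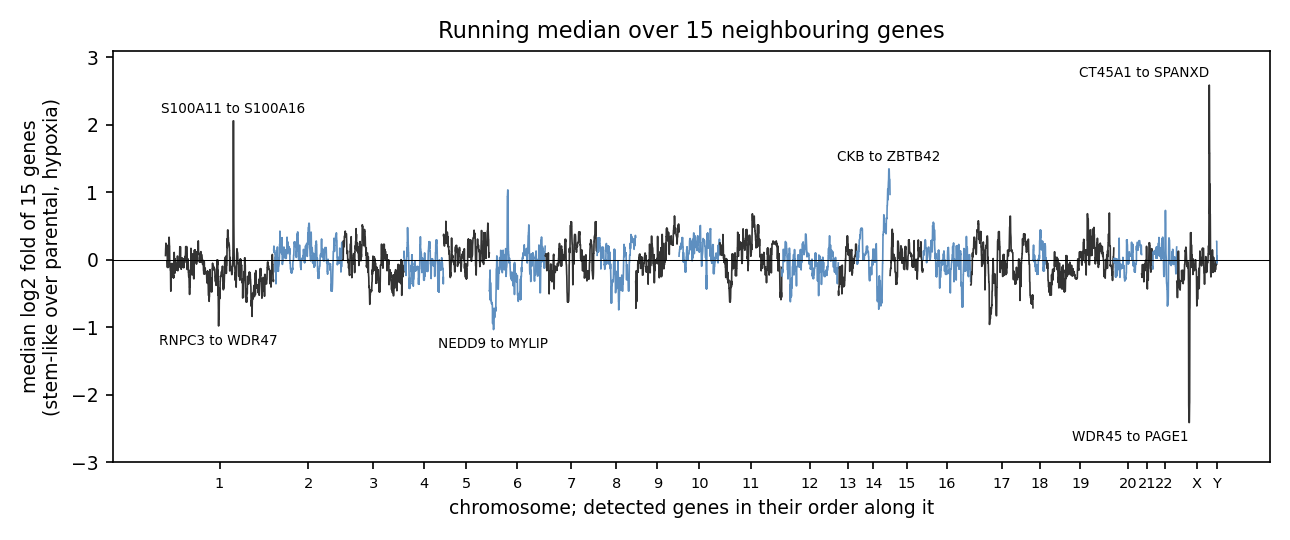
Median log2 fold (stem-like over parental cells in hypoxia) of 15 neighbouring detected genes, drawn in gene order along each chromosome, with the 3 highest and 3 lowest non-overlapping runs named by their first and last genes. The runs on chromosomes X, 1 and 14 reach 2.59, 2.06 and 1.35, and those on X, 6 and 1 reach -2.41, -1.03 and -0.98.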

How the data were processed

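RNA of the A2058 cultures was extracted with Trizol, labelled with biotin and hybridised to Illumina arrays, per the labels. The authors deposited mean bead intensity on a linear scale and a detection p-value for each probe, per the file headers, and a further intensity table whose quantiles are equal on all arrays; how they scanned and normalized is not given in the sources used here. In the first table, 47323 lines of values face 47315 probe identifiers, which slip against them by up to 8 lines. Lines were therefore matched in order to the further table by value. For the stem-like hypoxia array the Spearman rho between tables was 1.00 after matching and 0.0138 by the printed identifiers; 8 lines stayed unmatched and unused.

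All 4 arrays were processed together in limma 3.58.1 (R 4.3.3): normexp with controls inferred from the detection p-values, an offset of 16, quantile normalization and log2, which understates folds of dim genes. A probe was detected at a p-value under 0.01. Undetected values were raised to the lowest detected level of their array, and 61 bounds that ran against the detected side were set to 0. The probe with the highest mean level stands for a gene. Of 47315 probes, 30112 had 1 gene symbol, 8 several and 17195 no listed symbol; the annotation can be old. The steps were tested on simulated data. Groups came from the labels.

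The comparison and its 45 gene lists were chosen with earlier results of these data known. Genes named are the 12 highest and 12 lowest measured, the 8 largest bounds each way, up to 6 members of each list by size of fold, a fixed panel, the 8 largest differences between oxygen conditions each way, and genes of the runs given; other list members were named after their values were seen. A list's count covers detected members, and one detected on a single array had to differ. Alternatives varied background correction, scaling, offset, detection filter, probe summary and the table used.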

Additional observations from a re-analysis of the deposited data

Results flagged for a closer look

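In 9 of 9006 genes detected on all 4 arrays the cell-state fold pointed one way in hypoxia and the other way in normoxia, by at least 0.5 on the log2 scale in each, with 1 array per group; the differences were not tested. The fold was positive in hypoxia and negative in normoxia for PLIN5 (difference 1.73), UNC45A (1.43, with a further probe at -0.38 in hypoxia), STIM1 (1.26), MRTFB (1.25) and ANGPTL4 (1.10, with a further probe at 4.01 in hypoxia). It was negative in hypoxia and positive in normoxia for PLCXD1 (-1.70), PRKD2 (-1.39), TRIM62 (-1.25) and HMOX1 (-1.10), the haem oxygenase, which stood at 5.72 in stem-like cells and 6.32 in parental cells in hypoxia, and at 6.57 in stem-like cells and 6.07 in parental cells in normoxia.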

How the results depend on the processing

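Folds depend on background correction. Without it 372 genes were higher and 283 lower, 373 were higher and 286 lower in the authors' values, and with an offset of 50 the lower count was 418. Median scaling gave the counts in the report. The count of genes whose cell-state fold was greater in hypoxia than in normoxia by at least 1, and the count smaller by at least 1, were 2 and 4 without correction, 46 and 19 with median scaling, 6 and 12 with an offset of 50, and 3 and 5 in the authors' values, against 29 and 31 here, so these sets rest on the processing. The medians of 2 lists changed sign, that of fibroblast markers to 0.0733 with no detection filter and that of the Notch pathway to -0.22 over genes detected on both arrays. Over the named genes and 9 alternatives, 2297 values kept their side of the 2-fold limit, 142 no longer passed it, 18 newly passed it and 0 changed direction. No replicate could be left out. No paired analysis was possible because each group holds 1 array.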

Other observations

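The HOXB genes, picked out after their values were seen, were higher in stem-like cells. Of 6 detected members 5 were past 2-fold and 0 were lower, with a median log2 fold of 1.58; these are homeobox factors that lay out the body axis and lie next to each other on chromosome 17. HOXB8 stood at 9.38 in stem-like cells and 5.97 in parental cells, a log2 fold of 3.41, HOXB6 was at 2.38, HOXB2 at 1.75, HOXB5 at 1.42 and HOXB4 at 1.07, and HOXB7 was within the limit at 0.90. Of the other clusters, 0 of 7 detected HOXC genes, 0 of 7 HOXD genes and 0 of 1 HOXA genes were past 2-fold.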
